A study of Mus musculus with 6 samples.

Results

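The HIN-200 genes of mouse chromosome 1 were examined in B16F10 melanoma tumors grown at 2 body sites, because Ifi213 ran against its neighbors in these same tumors. The members were Ifi213, Ifi202b, Ifi203, Ifi204, Ifi205, Ifi207, Ifi209, Ifi211, Mndal and Aim2, which are 10 of the 45777 genes in the count table. They were chosen on the difference between the sites, so this difference is described for them and not tested. B16F10 is a mouse melanoma cell line, and its cells had been grafted into the hind footpad or the flank skin, with 3 tumors per site and 1 sequencing library per tumor. The labels give all 6 hosts as Foxn1-/- and 8 weeks old and name no drug. Foxn1-/- (nude) mice lack a functional thymus and so are short of T cells. The study's methods describe C57BL/6J hosts, with normal Foxn1, for syngeneic B16F10 grafts. Hosts of both genotypes are described as younger than 8 weeks at grafting, so the age on the labels does not tell them apart. The study also reports B16F10 grafts in Foxn1-null mice. It does not say which hosts the sequenced tumors came from, so the genotype and strain of the hosts are uncertain here. The labels name no background strain, and gene counts do not separate the RNA of host cells from that of B16F10 cells.

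HIN-200 proteins (also called PYHIN or p200 proteins) carry a C-terminal HIN domain that binds DNA and, in most members, an N-terminal pyrin domain that binds partner proteins. Many of the genes are induced by interferon in macrophages and other cells, through STAT and IRF factors that bind promoter elements named ISRE and GAS. The mouse family is a tandem array of related copies that has expanded relative to the human one, and the level of Ifi202b is known to vary between inbred strains.

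On GRCm38, the members lie between chr1:173349547 and chr1:174031755, a span of 682 kb. Aim2 and Ifi209 are annotated on the plus strand, and the other 8 members on the minus strand. RefSeq promoter windows, running from 250 bases before an annotated start to 50 bases after it, were at hand for 9 of the 10 members and for 3 other family genes, Ifi206, Ifi208 and Ifi214. Ifi204 was not matched. Mndal and Ifi203 had 2 windows each. The windows were searched on both strands for the core of the ISRE (GAAANNGAAA, N being any base) and for the GAS (TTCNNNGAA). The search turned up a shared run of 10 bases, and the 30 bases around it are shown because they bring out how alike the start regions of Ifi213 and its neighbors are. The sequences are RefSeq's for GRCm38.p6, written 5′ to 3′ on the strand of the gene, with the 10-base run in capitals.
Ifi213, chr1:173599326-173599355, minus strand: cgtctctgagGAAATCGAAAgctatgaacc
Ifi208, chr1:173673597-173673626, plus strand: cgtctctgagGAAATCGAAAgctatgaacc
Ifi206, chr1:173491339-173491368, minus strand: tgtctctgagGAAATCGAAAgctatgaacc
Ifi214, chr1:173536017-173536046, minus strand: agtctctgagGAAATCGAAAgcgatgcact
Ifi209, chr1:173630770-173630799, plus strand: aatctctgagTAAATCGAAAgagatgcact
Ifi207, chr1:173741831-173741860, minus strand: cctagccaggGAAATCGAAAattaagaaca
Mndal, chr1:173880204-173880233, minus strand: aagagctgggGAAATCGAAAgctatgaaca
Ifi203, chr1:173942508-173942537, minus strand: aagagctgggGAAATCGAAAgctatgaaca
Ifi211, chr1:173913064-173913093, minus strand: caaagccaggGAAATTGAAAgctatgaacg
Ifi205, chr1:174031870-174031899, minus strand: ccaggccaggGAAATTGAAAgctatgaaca

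The run GAAATCGAAA stood in 7 of the 14 family windows, those of Ifi213, Ifi206, Ifi208, Ifi214, Ifi207, 1 of Mndal and 1 of Ifi203. Over all 32851 RefSeq windows of the same length, 16 held it on either strand, or 0.0487%. These 16 include the 7 family windows. Counted from 1 at the 5′ end of the run, Ifi209 differed from it by G1T, and Ifi211 and Ifi205 by C6T. In the windows of Aim2 and Ifi202b, the nearest match had 4 differences. The run starts 73 bases before the annotated start of Ifi213, where its first base is numbered -73, and at -58 in Ifi208, -41 in Ifi207 and -79 in Ifi209. Other annotated starts differ: the RefSeq span of Ifi213 begins 3 bases upstream of the run, and in GENCODE M21 the run of Mndal lies in an exon. This 10-base form was picked after the sequences were seen.

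The ISRE core in its general form was found in 7 of the 11 windows of members (63.6%), in 27 of the 52 windows of a list of interferon-stimulated genes (51.9%), in 0 of 34 windows of a list of DNA-sensing and inflammasome genes, and in 3.44% of all windows. The GAS was found in the window of Ifi202b alone among the members, at -148, and in 8.30% of all windows. These are letter matches and not measured binding sites. Among the other members, Ifi207, Mndal and Ifi203 carry the same 10 bases as Ifi213. Their fitted levels were higher in the footpad, with overlap between the sites for Mndal and Ifi203. Ifi206, Ifi208 and Ifi214 also carry them but had too few reads to be tested. Whether these bases bear on the levels was not tested.

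**Figure D1:**
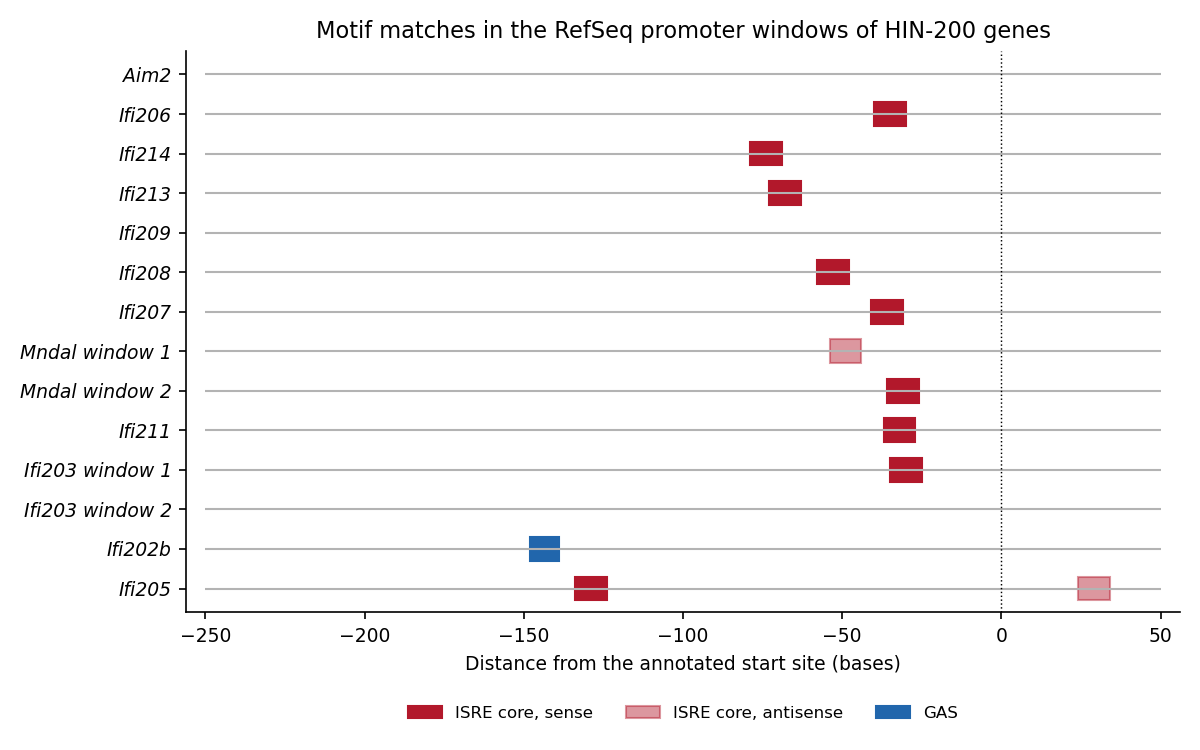
Matches to the ISRE core (red, paler where antisense) and to the GAS (blue) in the 14 RefSeq promoter windows of 12 HIN-200 genes, by distance in bases from the annotated start site (dotted line). Ifi213 has a sense match to the ISRE core at -73, and Aim2, Ifi209 and the second window of Ifi203 have no match to either motif.

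Upstream of the outermost annotated start of Ifi213, 174 bases of the window remained. When these were aligned with the matching stretch of Ifi208, 172 of 174 bases were identical. The 2 stretches are shown with that of Ifi202b, the member whose mean FPKM was highest in the footpad tumors and which lacked the 10-base run. Capitals mark an ISRE core in Ifi208 and a GAS in Ifi202b, and the stretch of Ifi213 ends just before its own ISRE core.
Ifi213, chr1:173599349-173599522, minus strand: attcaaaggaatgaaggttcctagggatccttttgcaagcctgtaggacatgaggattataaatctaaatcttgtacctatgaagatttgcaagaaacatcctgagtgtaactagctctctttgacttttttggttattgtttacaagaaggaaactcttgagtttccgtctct
Ifi208, chr1:173673415-173673627, plus strand: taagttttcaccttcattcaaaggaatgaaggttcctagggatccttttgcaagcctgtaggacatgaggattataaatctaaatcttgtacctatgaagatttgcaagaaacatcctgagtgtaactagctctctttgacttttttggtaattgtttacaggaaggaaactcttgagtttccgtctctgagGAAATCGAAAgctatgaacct
Ifi202b, chr1:173982845-173983094, minus strand: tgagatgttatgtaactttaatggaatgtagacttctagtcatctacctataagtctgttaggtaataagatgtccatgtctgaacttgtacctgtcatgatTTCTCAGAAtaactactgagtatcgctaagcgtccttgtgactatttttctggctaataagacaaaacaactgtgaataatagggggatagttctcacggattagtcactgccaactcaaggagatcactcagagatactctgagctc

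Over the full windows, the family fell into pairs of close copies. Ifi214 and Ifi209 were 95.3% identical, 1 window of Mndal and 1 of Ifi203 were 90.7% identical, and Ifi213 and Ifi208 were 89.5% identical. Ifi206 was close to both Ifi208 (87.5%) and Ifi213 (78.7%), and Ifi207 and Ifi211 were 85.9% identical. All other pairs were between 46.0% and 58.1% identical in these alignments, where every gapped column counted as a difference. Windows whose starts are annotated at different places therefore score low even where their sequences match. Ifi205, with its run at -134 against -37 in Ifi211, had 190 bases identical to Ifi211 over 399 columns. With Ifi207 it had 182 identical bases over 396 columns, each window being 300 bases long. Its low percentages thus do not mean that its start region is unlike theirs.

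Each tumor had between 46529649 and 66364366 reads assigned to genes, and 3 reads correspond to between 0.0438 and 0.0673 CPM (counts scaled to a common library size). Of 45777 genes, 17210 passed the filter on low counts, and 497 of these were called higher and 150 lower in the footpad tumors with edgeR's quasi-likelihood test at a Benjamini-Hochberg adjusted p under 0.05 and a fold of 2 or more. These counts rested on single libraries: without footpad replicate 3, 0 genes were called in either direction. Melanocyte markers summed to between 9802 and 24942 CPM per tumor, and 6 T cell markers to between 0 and 0.160 CPM. Footpad replicate 2 stood apart, with 419 CPM of keratinocyte markers and 398 CPM of skeletal muscle markers, against at most 20.5 and 47.8 CPM in any other tumor.

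Ifi213, the member around which the cluster was chosen, was almost silent in the footpad tumors and abundant in the flank skin tumors. It had 12, 17 and 34 reads in footpad replicates 1, 2 and 3, and 1037, 1642 and 650 reads in flank skin replicates 1, 2 and 3. In CPM, this was 0.269, 0.248 and 0.694 in the footpad and 17.9, 28.1 and 10.4 in the flank skin. The groups did not overlap, and every footpad tumor was above the level of 3 reads, so the gene was low there but not absent. The mean was 0.404 ± 0.252 CPM (SD, n = 3) in the footpad and that in the flank skin tumors 18.8 ± 8.89 CPM (SD, n = 3), a 46.5-fold ratio of means. The fitted log2 fold change, footpad over flank skin, was -5.55 (SE 0.57). In bulk RNA, fewer cells of a type and less RNA per cell cannot be told apart.

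The log2 fold change of Ifi213 was among the lowest in the table. Of the 17210 genes tested, 10 had a lower one, and all 10 of these had 3 reads or fewer in every footpad tumor. Without footpad replicate 3, which held most of the Ifi213 reads of its site, the fitted value was -6.18.

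The 10 members all passed the filter on low counts. The log2 fold change was positive for 9 and negative for 1, with a median of 1.43 over the 9 members other than Ifi213, beside -0.00 over all genes tested. Ifi202b was called higher, where 2.89% of all tested genes were, and Ifi213 was called lower, where 0.872% were. The levels of the sites did not overlap for 2 members that were higher (Ifi202b and Ifi207) and 1 that was lower (Ifi213), beside 17.5% and 14.9% of all tested genes in these directions. Since the members were picked on this contrast, nothing was read from these counts.

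**Figure D2:**
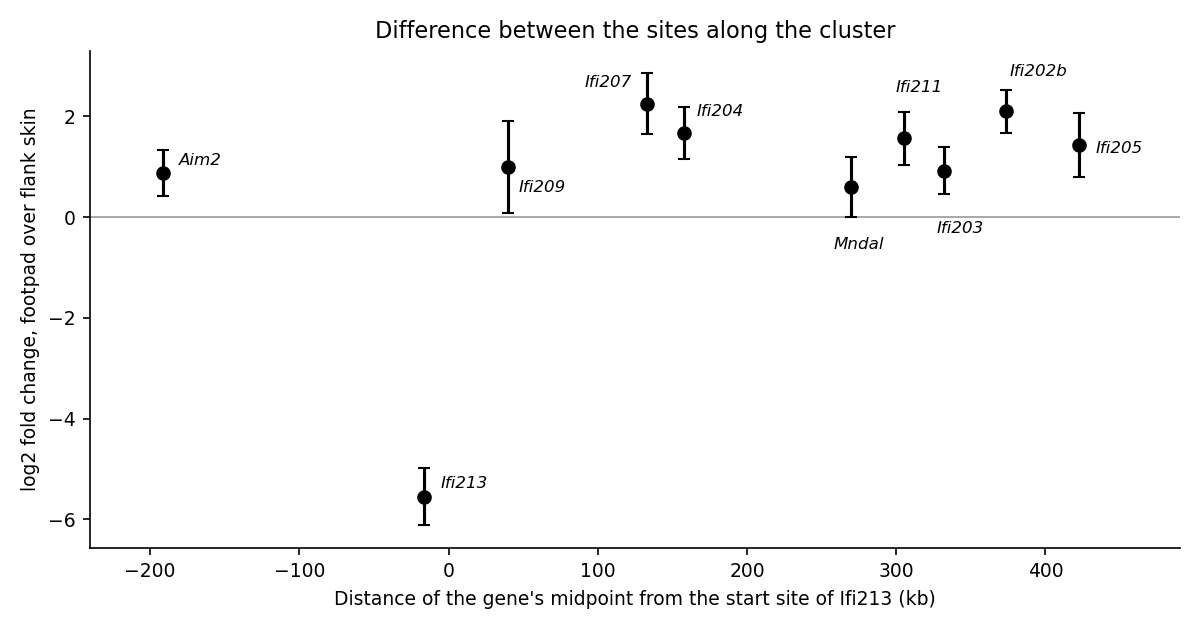
Log2 fold change, footpad over flank skin, of each member against the distance of its midpoint from the start of Ifi213 in kb. Points are fitted values and bars are ± 1 SE, with 3 tumors per site. Ifi213 lies at -5.55 and the 9 other members between 0.60 and 2.26.

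Aim2, a sensor of cytosolic DNA that assembles an inflammasome with the adaptor ASC, had a small difference between the sites. Its reads were 103, 61 and 75 in the footpad tumors and 37, 47 and 70 in the flank skin tumors, or 2.31, 0.890 and 1.53 CPM against 0.638, 0.804 and 1.12 CPM. The sites overlapped, with footpad replicate 2 below flank skin replicate 3. The log2 fold change was 0.88 (SE 0.45). With depth taken as the reads assigned to genes, the ratio of reads to FPKM gives the transcript length implied by the authors' FPKM. The depth measure that they used is not given in the sources used here, so these lengths are approximate. For Aim2 the implied length was 3608 bases in flank skin replicate 3 and between 5984 and 7499 bases in the others. For Ifi213 it was 5183 bases in footpad replicate 3 and between 3509 and 4041 bases in the others. For Ifi209 it was 5945 bases in flank skin replicate 1, which had 3 reads, and between 3927 and 4171 bases in the others, and for Ifi203 it ranged from 4219 to 5664 bases. FPKM and CPM are therefore not exactly proportional between tumors, most of all for Aim2, Ifi209, Ifi213 and Ifi203.

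Ifi202b encodes p202, which has HIN domains but no pyrin domain and is known as an inhibitor of Aim2. It had 497, 484 and 654 reads in the footpad and 115, 228 and 93 reads in the flank skin. In CPM, the footpad tumors were at 11.2, 7.06 and 13.4 and the flank skin tumors at 1.98, 3.90 and 1.49. All 3 footpad tumors were above all 3 flank skin tumors, and the log2 fold change was 2.10 (SE 0.42). No stretch of 100 bases in its transcript is shared with another gene in GENCODE M21, so its reads are not split with other copies at that length.

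Ifi204 (p204) is the member usually set beside human IFI16, a DNA sensor that acts through STING. Its levels were 17.4, 6.02 and 17.5 CPM in the footpad and 4.57, 6.24 and 2.01 CPM in the flank skin. Footpad replicate 2 was just below flank skin replicate 2, and the other 2 footpad tumors were above all flank skin tumors. The log2 fold change was 1.67 (SE 0.52). Of the 100-base stretches of its transcripts, 9.56% recur in Ifi211.

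The remaining members are interferon-inducible HIN-200 genes with less settled functions. Ifi207 had 5.50, 1.75 and 4.02 CPM in the footpad and 0.586, 1.37 and 0.399 CPM in the flank skin, with a log2 fold change of 2.26 (SE 0.60). Its sites did not overlap, and the gap between footpad replicate 2 and flank skin replicate 2 was small.

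Ifi211 had 7.21, 2.39 and 6.70 CPM in the footpad and 2.19, 2.41 and 0.895 CPM in the flank skin, and Ifi205 had 1.37, 0.554 and 2.53 CPM against 0.621, 0.753 and 0.272 CPM. In both genes, footpad replicate 2 overlapped the flank skin tumors. The log2 fold changes were 1.57 (SE 0.53) and 1.43 (SE 0.64). These genes are close copies: 43.1% of the 100-base stretches of the Ifi211 transcript are unique and 37.3% recur in Ifi205. Ifi211 also shares stretches with Ifi204. How the authors' counting treated reads that match several genes is not given in the sources used here. The division of reads among Ifi211, Ifi205 and Ifi204 is therefore uncertain.

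Ifi203 had 9.90, 3.81 and 9.51 CPM in the footpad and 4.59, 5.53 and 2.11 CPM in the flank skin, with a log2 fold change of 0.92 (SE 0.47). Mndal, its neighbor, had 205, 149 and 275 reads in the footpad and 191, 234 and 53 reads in the flank skin, with a log2 fold change of 0.60 (SE 0.59), the smallest difference of the members. The sites overlapped for both genes. Ifi209 was the weakest in reads, with 41, 11 and 46 in the footpad and 3, 35 and 22 in the flank skin, and flank skin replicate 1 was at the level of 3 reads. Its log2 fold change was 1.00 (SE 0.91), with overlap between the sites.

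The other HIN-200 genes of the array were near the detection limit. Ifi208, whose start region is the near copy of that of Ifi213, had 0, 0 and 7 reads in the footpad and 12, 7 and 7 reads in the flank skin. Ifi206 had 0 reads in every footpad tumor and 0, 3 and 6 reads in the flank skin, and Ifi214 had 5 reads in footpad replicate 3, 2 in flank skin replicate 1 and 0 elsewhere. None of these 3 genes passed the filter on low counts. The pseudogene Ifi203-ps did, with 36, 24 and 55 reads in the footpad and 16, 20 and 17 in the flank skin, and its log2 fold change of 1.35 (SE 0.53) was not called (adjusted p = 0.170 with edgeR). Of the 100-base stretches of Ifi213 transcripts, 96.7% are unique to the gene, and of the 50-base stretches 84.4% are, with Ifi208 as the closest copy.

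Levels were compared between genes in FPKM, which is scaled for transcript length. In the footpad tumors, Ifi202b (5.18 ± 1.54 FPKM, SD, n = 3) and Ifi204 (5.17 ± 2.39) were the highest of the 10, followed by Ifi211 (2.64 ± 1.20), Mndal (1.72 ± 0.69), Ifi203 (1.52 ± 0.72), Ifi207 (0.927 ± 0.431), Ifi205 (0.812 ± 0.562), Aim2 (0.247 ± 0.122) and Ifi209 (0.166 ± 0.109). Ifi213 was last, at 0.0926 ± 0.0384 FPKM. Each gene in this order overlapped the next over the 3 tumors, so only wider gaps in the order exceed the spread.

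In the flank skin tumors, Ifi213 came first, at 4.76 ± 2.46 FPKM (SD, n = 3), and its lowest tumor, at 2.65 FPKM, was above the highest tumor of the next gene. That gene was Ifi204, at 1.60 ± 0.86 FPKM. The order then ran through Ifi202b (1.24 ± 0.74), Mndal (1.10 ± 0.72), Ifi203 (0.945 ± 0.468), Ifi211 (0.895 ± 0.448), Ifi205 (0.301 ± 0.152), Ifi207 (0.194 ± 0.145), Aim2 (0.173 ± 0.116) and Ifi209 (0.0863 ± 0.0774), with overlap between each of these and the next. Ifi213 thus held the 10th place in the footpad and the 1st in the flank skin, while Ifi204, Mndal, Ifi203 and Ifi205 held the same place at both sites.

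**Figure D3:**
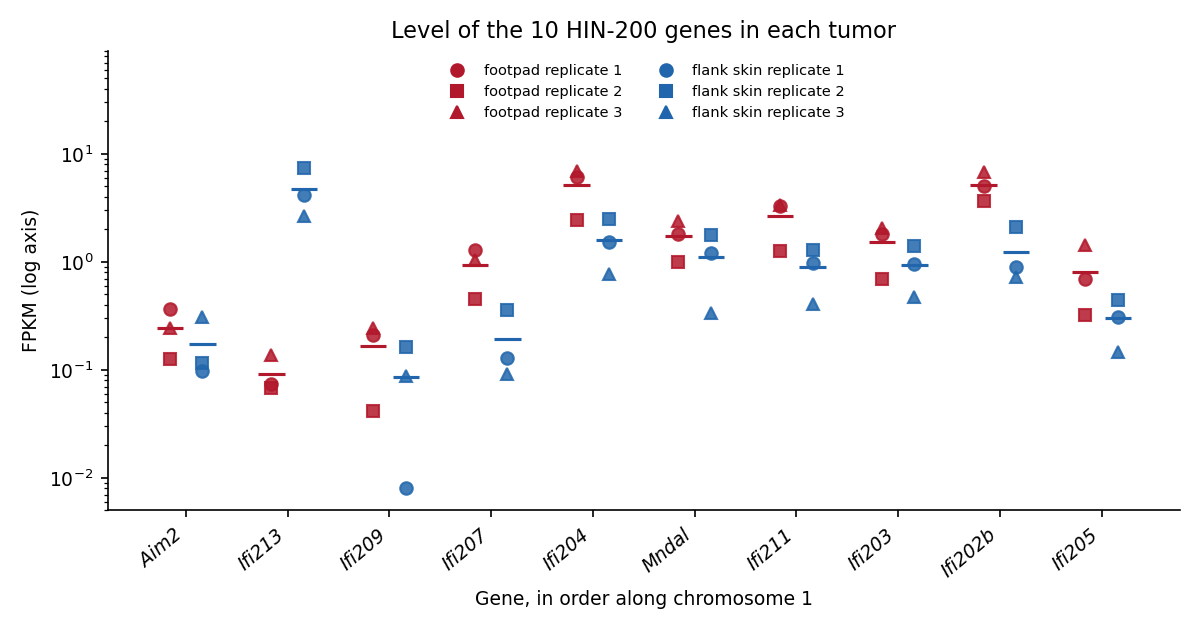
FPKM on a log axis of the 10 members in the 6 tumors, ordered along chromosome 1, with footpad in red and flank skin in blue. Points are tumors and bars are means of 3. For Ifi213 the flank skin tumors lie between 2.65 and 7.46 FPKM and the footpad tumors between 0.0676 and 0.137 FPKM.

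As a share of the reads of the 10 members, Ifi213 was close to constant among the flank skin tumors, where the intervals overlapped. It took 49.1% (95% Wilson interval 47.0 to 51.3), 52.3% (50.6 to 54.1) and 52.3% (49.5 to 55.0) in flank skin replicates 1, 2 and 3. In the footpad tumors it took 0.444% (0.254 to 0.775), 0.990% (0.619 to 1.58) and 1.11% (0.797 to 1.55), and the intervals of replicates 1 and 3 did not overlap. The intervals cover counting error only. In the flank skin, the summed level of the other 9 members was 18.5, 25.6 and 9.49 CPM, so Ifi213 stayed near an equal share while that sum varied between tumors.

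The sum of the 9 was 60.3, 24.8 and 61.7 CPM in the footpad tumors. Footpad replicates 1 and 3 were above all flank skin tumors, and footpad replicate 2 lay between flank skin replicates 1 and 2. The same tumors set the extremes in gene after gene: footpad replicate 2 was the lowest of its site for 9 of the 9 members, flank skin replicate 2 the highest for 8 and flank skin replicate 3 the lowest for 7. Within the footpad, the highest tumor was replicate 3 for 5 members and replicate 1 for 4.

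The make-up of the sum was described by the share of each member in the reads of the 9. Ifi202b took 18.5 to 28.5% of the reads of the 9 in the footpad and 10.7 to 15.7% in the flank skin. Ifi207 took 6.52 to 9.11% against 3.17 to 5.34%, and Ifi203 took 15.3 to 16.4% against 21.6 to 24.8%. For these 3 members the shares did not overlap between the sites, and for the other 6 they did. In CPM, the sites did not overlap for 32.5% of all tested genes, counting both directions. Shares of the same sum depend on each other, and nothing was read from this count.

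Markers of macrophages, in which HIN-200 genes are known to be expressed, had a higher sum in every footpad tumor. The 10 markers summed to 292, 263 and 299 CPM in the footpad and 34.6, 181 and 82.3 CPM in the flank skin. All 10 had a positive log2 fold change (median 1.12), as did 8551 of all 17210 genes tested. For 6 of them the sites did not overlap, beside 17.5% of all tested genes in this direction, and Mrc1, C1qa, C1qb and C1qc overlapped. Of the 10, Cd68 alone was called higher (log2 fold change 1.51, SE 0.32, adjusted p = 0.0429 with edgeR), beside 2.89% of all tested genes. This call was kept only without footpad replicate 2 when each tumor was left out (adjusted p from 0.0335 to 0.148 with edgeR). Per 100 CPM of macrophage markers, the 9 members stood at 20.7, 9.42 and 20.7 CPM in the footpad and 53.6, 14.1 and 11.5 CPM in the flank skin, so the sites overlapped, as they did for each of the 9 members taken alone. Ifi213 on the same scale was between 0.0922 and 0.232 in the footpad and between 12.6 and 51.7 in the flank skin, without overlap. The 7 neutrophil markers summed to 372, 7.19 and 179 CPM in the footpad and 19.6, 30.8 and 4.76 CPM in the flank skin, with footpad replicate 2 again the lowest of its site and flank skin replicate 2 the highest. Fibroblast markers, between 2042 and 2834 CPM in the footpad and between 54.1 and 297 CPM in the flank skin, were higher in every footpad tumor. The part of these cell types in the levels of the HIN-200 genes was not tested.

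**Figure D4:**
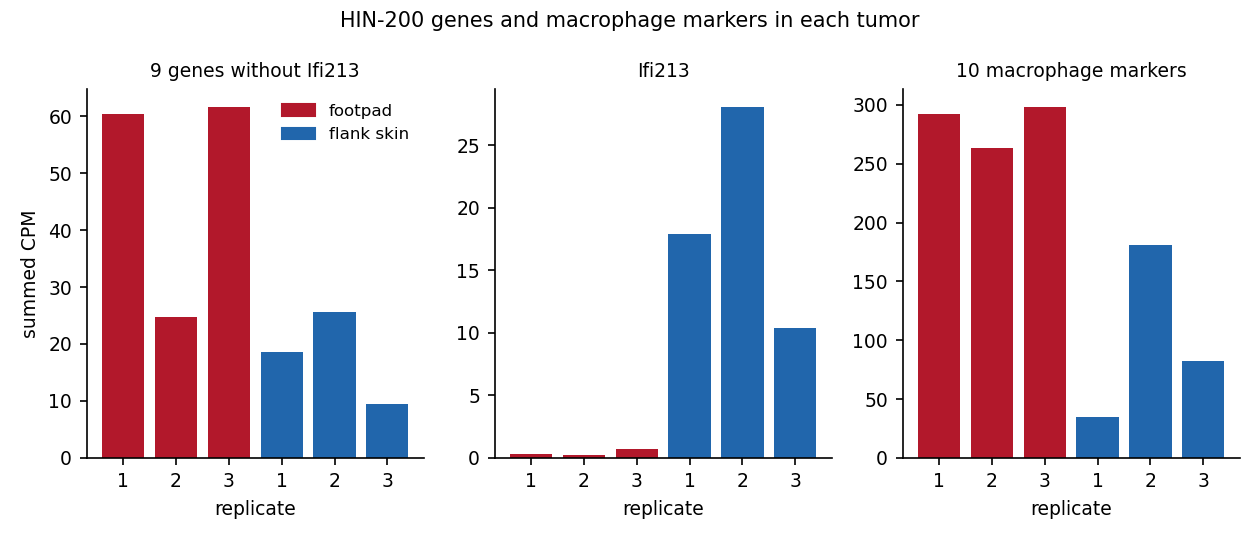
Summed CPM in each of the 6 tumors of the 9 members without Ifi213 (left), of Ifi213 (middle) and of 10 macrophage markers (right), each panel with its own axis from 0. The left and right panels are higher in footpad replicates 1 and 3 than in any flank skin tumor, and Ifi213 is below 0.70 CPM in every footpad tumor and above 10 CPM in every flank skin tumor.

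Other genes under interferon control were examined as a list. Of 56 interferon-stimulated genes, all tested, 0 were called in either direction with edgeR, beside 3.76% of all tested genes. At an unadjusted p under 0.05 with edgeR there were 6 of the 56, beside 4349 of all 17210 genes tested. DESeq2 called 2, Ifit3 and Slfn5, where it called 1201 genes higher and 366 lower in all. These 2 went in opposite directions, with edgeR log2 fold changes of -1.03 for Ifit3 and 1.35 for Slfn5. The log2 fold change was positive for 19 and negative for 37, with a median of -0.32. Isg15, a ubiquitin-like modifier, had 29.2, 5.02 and 18.0 CPM in the footpad and 41.8, 8.91 and 5.88 CPM in the flank skin. Flank skin replicate 1 was the highest tumor for Isg15, a place it took for none of the 9 members.

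Stat2 (log2 fold change 0.20, SE 0.44), Irf9 (-0.35, SE 0.32), Irf7 (0.32, SE 0.63) and Oasl2 (-0.35, SE 0.60) were not called and overlapped between the sites. Among 23 interferons, receptors and regulators, 13 passed the filter on low counts, and 1 was called higher, Irf5, a regulator of inflammatory genes in myeloid cells, beside 2.89% of all tested genes. It had 10.7, 4.94 and 7.06 CPM in the footpad and 0.862, 2.22 and 1.36 CPM in the flank skin (log2 fold change 2.35, SE 0.44, adjusted p = 0.0340 with edgeR). When each tumor was left out, the edgeR call of Irf5 was lost without footpad replicates 1 and 3 and flank skin replicates 1 and 3 (adjusted p from 0.0641 to 0.127). Ifnb1, the gene of interferon beta, had at most 0.0408 CPM in any tumor.

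Of 33 listed DNA-sensing and inflammasome genes, 31 were tested and 1 was called higher, Ripk3, a kinase of necroptosis, beside 2.89% of all tested genes. Ripk3 had 7.63, 4.39 and 8.47 CPM in the footpad and 0.500, 1.06 and 1.37 CPM in the flank skin (log2 fold change 2.80, SE 0.45, adjusted p = 0.0236 with edgeR). This call was lost when any of footpad replicates 1 and 3 or flank skin replicates 2 and 3 was left out (adjusted p from 0.0528 to 0.110 with edgeR), and the count of the list was then 0. The log2 fold change was positive for 16 and negative for 15 of the 31, with a median of 0.03.

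The partners of Aim2 had values in both directions. Pycard, which encodes ASC, had 1.37, 2.89 and 0.980 CPM in the footpad and 6.12, 1.85 and 0.751 CPM in the flank skin (log2 fold change -0.73, SE 0.76). Casp1, the inflammasome protease, was at 0.03 (SE 0.69), and Gsdmd, the pore-forming substrate, at -0.68 (SE 0.42). Of the cytokines that Casp1 cleaves, Il1b was at 2.22 (SE 1.14) and Il18 at -1.64 (SE 0.39), and Nlrp3, the sensor of another inflammasome, was at 3.03 (SE 1.27). The sensor Cgas (-0.05, SE 0.21) and its effector Tmem173, which encodes STING (0.20, SE 0.14), had the smallest errors of these genes. None of these 8 genes was called with edgeR in all 6 tumors. The sites did not overlap for Il18, which was lower in the footpad (adjusted p = 0.0565 with edgeR). They also did not overlap for Tmem173, which was slightly higher there. Of all tested genes, 14.9% were lower and 17.5% higher in the footpad without overlap. Il18 was called lower with DESeq2, with a filter of 10 reads in every tumor, and without footpad replicate 2 with edgeR, and its adjusted p was between 0.00115 and 0.183 over all alternatives.

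Il1b and Nlrp3 shared some of the extremes seen in the 9 members. Il1b had 33.5, 2.20 and 20.3 CPM in the footpad and 0.914, 9.89 and 1.23 CPM in the flank skin, and Nlrp3 had 9.74, 0.540 and 4.70 CPM against 0.121, 1.57 and 0.128 CPM. Footpad replicate 2 was the lowest of its site and flank skin replicate 2 the highest of its own for both, but the lowest flank skin tumor was replicate 1 and not replicate 3.

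**Figure D5:**
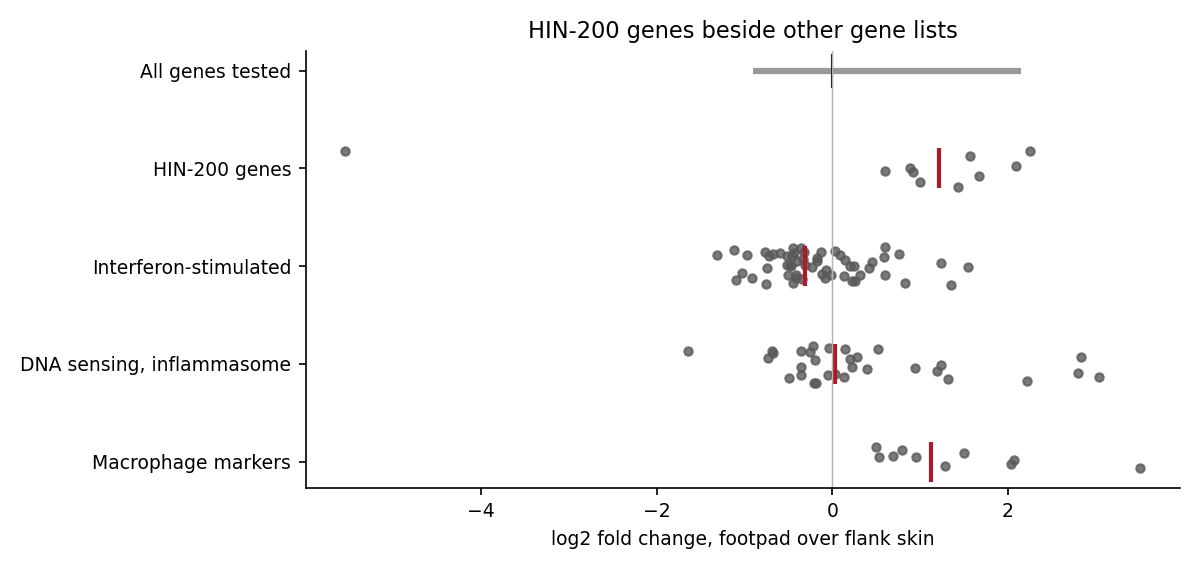
Log2 fold change, footpad over flank skin, of the tested genes of each list (points) with the median (red bar), beside the 5th to 95th percentile of all 17210 genes tested (grey bar, with its median). Ifi213 is the point at -5.55, the other 9 HIN-200 genes are all above 0, and the interferon-stimulated genes are centered at -0.32.

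Within 500 kb of the outermost members, 39 other genes were listed, and 29 of them had 3 reads or fewer in every tumor. The 20 olfactory receptor genes among the 39 had at most 6 reads in any tumor. Among those tested was Cadm3, a cell adhesion gene whose span overlaps that of Aim2 on the other strand. It was called higher, with 19, 62 and 20 reads in the footpad and 3, 2 and 7 reads in the flank skin (log2 fold change 3.09, SE 0.67, adjusted p = 0.0456 with edgeR). The edgeR call of Cadm3 was lost when any tumor was left out (adjusted p from 0.0938 to 0.138).

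By Pearson's r of log2 CPM over the 6 tumors, the 5 tested genes most like Ifi213 were Glcci1 (r = 0.999), Gm36409, Atp2c1, Rbm48 and Pum2. These differed far less between the sites than Ifi213 did. Glcci1 had 13.7, 13.6 and 15.0 CPM in the footpad and 22.6, 24.5 and 21.5 CPM in the flank skin, a log2 fold change of -0.70 (SE 0.14). The largest difference of the 5 was that of Gm36409, at -2.17 (SE 0.41). With 6 tumors in 2 groups such likeness is common, and 554 genes had r above 0.9 with Ifi213.

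The genes most like the mean of the other 9 members were Fut4 (r = 0.998), Sirpb1b, Clec4d, Golgb1 and Adcy4, of 687 genes with r above 0.9. Clec4d, a C-type lectin of myeloid cells, had 18.6, 2.06 and 12.2 CPM in the footpad and 0.621, 2.19 and 0.272 CPM in the flank skin, a log2 fold change of 3.41 (SE 0.97). Fut4, a fucosyltransferase, had 2.07, 0.744 and 2.06 CPM against 0.466, 0.787 and 0.320 CPM. These correlations are descriptions over tumors that share their site, and the tumors are the same for every gene.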

How the data were processed

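RNA of 6 B16F10 tumors was analysed, 3 footpad and 3 flank skin tumors. Groups came from the labels. The members and gene lists were chosen with earlier results of these data known. The authors made stranded total RNA libraries, trimmed reads with Trimmomatic and aligned them with HISAT2 2.1.0 to mm10. The deposited read counts per gene are not normalized, and the authors' deposited FPKM values take transcript length and sequencing depth into account. The counting program, its strand setting and the read length are not given in the sources used here, so reads of overlapping or near-identical genes are uncertain.

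Counts were fitted in R 4.3.3 with edgeR 4.0.16 (TMM, filterByExpr, glmQLFit and glmQLFTest) over all genes, and p-values were adjusted after Benjamini and Hochberg. A call required an adjusted p below 0.05 and a change of at least 2-fold. The script was tested on simulated data. CPM used TMM-scaled library sizes. Standard errors were the log2 fold change divided by the square root of F. The study gives mice as its unit of replication and describes grafting several sites of an animal together, so footpad and flank skin tumors may share animals, but the labels tie no tumor to an animal. Of 45777 genes, 45679 matched RefSeq by identifier. Alternatives were DESeq2 1.42.0, other filters and scaling, limma 3.58.1 on log2(FPKM + 1) and log2(FPKM + 0.1), a replicate block, and leaving out each tumor. Zbp1 is in both the interferon-stimulated and the DNA-sensing list. Named genes were the members, other HIN-200 genes, called genes of the lists and within 500 kb, textbook members of each list, and the 5 genes most like Ifi213 and most like the mean of the others. Genes DESeq2 called, and Ifnb1, Clec4d and Fut4 among the named, were described after their values were seen. Some genes that this rule names are not reported here.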

Additional observations from a re-analysis of the deposited data

How the results depend on the processing

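Ifi213 was lower and the other 9 members higher in the footpad in every alternative that gave a value. With log2(FPKM + 1) and log2(FPKM + 0.1), which shrink low levels, Ifi213 was at -2.31 and -4.55, and leaving out each tumor gave -6.18 to -5.14. The median of the other 9 was 0.44 with log2(FPKM + 1) and 0.90 to 1.83 when each tumor was left out. Ifi209 had no value under a filter of 10 reads in every tumor. Counts of genes called were less stable: 497 higher and 150 lower became 1201 and 366 with DESeq2, 139 and 39 with log2(FPKM + 1), 274 and 94 with log2(FPKM + 0.1), and 0 to 639 and 0 to 197 without each tumor. Without footpad replicate 1 they were 26 and 5, without flank skin replicate 3 they were 36 and 10, without flank skin replicate 1 they were 231 and 77, and without flank skin replicate 2 they were 432 and 98; without footpad replicate 3 they were 0 and 0, where edgeR had 1459 and 420 at an unadjusted p under 0.05 with a fold of 2 or more. Interferon-stimulated genes called were 0, but 2 with DESeq2 and 0 to 1 without each tumor. DNA-sensing and inflammasome genes called were 1, but 3 with DESeq2, 2 with at least 10 reads in every tumor and 0 to 2 without each tumor. The cause was not tested.

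The replicate block called 0 genes higher, 0 lower and 0 of the DNA-sensing list (1378 higher and 413 lower at an unadjusted p under 0.05 with a fold of 2 or more), with Ifi213 at -5.55. Same-numbered tumors deviated with r of 0.0544, -0.0965 and -0.115, no tumor correlated best with its own number, and the labels state no pairing. The highest r was 0.264, between footpad replicate 2 and flank skin replicate 3. Replicate numbers need not stand for animals, so these values do not show whether tumors shared animals. Low counts limit Ifi209, Ifi206, Ifi208 and Ifi214 most.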
